A study of Mus musculus with 8 samples.

Results

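Hox genes are the homeobox transcription factor genes that lie in 4 chromosomal clusters, Hoxa, Hoxb, Hoxc and Hoxd, and are numbered by paralogue group from the anterior (low numbers) to the posterior (high numbers) end of the body axis. Members were every gene whose array annotation gave a single symbol made of Hox, a cluster letter and a number. The mouse reference annotation lists 39 such genes, and 35 of them had a probe set, of 18336 named genes in all: 33 in the E18.5 table, 31 in the E11.5 table and 29 in both. The remaining 4 were not analysed here. The choice of genes used names alone and no measured value, although earlier results of these data were known.

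The study held 8 Affymetrix 1-colour arrays of FVB/N mouse tissue. At E11.5 (E for embryonic day), 1 lung and 1 trachea sample were measured. At E18.5, 3 single transgenic lung samples, labelled as the SP-C/MIA control, were set against 3 double transgenic lung samples, labelled as the SP-C/MIA overexpressor and called bitransgenic here. The design text describes the controls as littermates. The labels do not say which transgene the controls carried, name no inducing agent and do not say whether a sample pooled embryos. SP-C is the surfactant protein C gene, whose promoter is active in the distal lung epithelium, and MIA is a small secreted protein. Nothing in the labels beyond the group names says that the E18.5 samples came from separate embryos, so the p-values measure the spread between these samples.

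In the embryo, neighbouring Hox genes are switched on in order along each cluster, so that low-numbered genes reach further forward than high-numbered ones. The developing lung is known to express mainly genes of the anterior and middle paralogue groups, most of them in the mesenchyme around the epithelial tubes. Hoxa5 is needed for normal lung and tracheal development, and Hoxb5 is known for its part in airway branching. In these bulk samples, fewer cells of a type and less RNA per cell cannot be told apart.

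Mia rose in the bitransgenic lungs, from 1071, 1070 and 734.3 to 31400, 42670 and 41550 signal units, the direction the labels give. Median signals were 415 to 464 on the E18.5 arrays and 541 and 545 at E11.5. Sftpc, the surfactant protein C gene and a marker of distal lung epithelium, read 1503 in E11.5 lung and 256.8 in E11.5 trachea, and 72240 to 93280 in E18.5 lungs. The cartilage markers Col2a1, Acan and Matn1 read at most 64.81 on either E11.5 array, below the filter described further on. Mean correlation with the rest of the E18.5 set was lowest for control 3 (0.957) and bitransgenic 3 (0.965). The Actb 3' to 5' signal ratio, a sign of RNA quality, was 1.28 to 1.5 in the controls and 1.51 to 1.65 in the bitransgenic lungs. The groups did not overlap in this ratio, so fits that include it cannot cleanly tell RNA quality and group apart.

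Sequences are printed for 2 genes of the Hoxa cluster, picked after the values were seen. These genes lay on opposite sides of the E11.5 comparison, and both have an upstream window in the RefSeq table (GRCm38.p6). Hoxa2 read higher in trachea and Hoxa5 higher in lung. The 250 bases before each start are printed 5′ to 3′ on the minus strand, with TAAT, the core recognised by homeodomain proteins, or its reverse complement ATTA in capitals. The Hoxa2 window is chr6:52164832-52165081 and the Hoxa5 window chr6:52204588-52204837.
Hoxa2: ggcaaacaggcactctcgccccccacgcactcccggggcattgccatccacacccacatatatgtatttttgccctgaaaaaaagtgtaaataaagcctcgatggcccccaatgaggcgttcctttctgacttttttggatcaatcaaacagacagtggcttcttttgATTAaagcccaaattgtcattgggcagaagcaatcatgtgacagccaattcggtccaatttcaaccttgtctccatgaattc
Hoxa5: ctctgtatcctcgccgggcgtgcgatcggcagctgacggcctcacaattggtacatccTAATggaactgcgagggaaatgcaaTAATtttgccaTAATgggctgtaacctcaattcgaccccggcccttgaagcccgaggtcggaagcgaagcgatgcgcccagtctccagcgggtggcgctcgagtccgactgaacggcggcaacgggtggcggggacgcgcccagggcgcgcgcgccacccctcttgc

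The Hoxa5 window held 3 TAAT cores and the Hoxa2 window 1, with GC contents of 63.6% and 46.4%. Of 24 upstream windows of 22 Hox genes in the table, 18 (75.0%) held TAAT on either strand, against 54.9% of all 32851 windows of the same length. AGGTCA, the half-site of retinoic acid receptors, was in 6 Hox windows (25.0%, against 14%), among them those of Hoxb4 and Hoxd4. TTTAT, the core of Cdx sites, was in 9 (37.5%, against 37.3%), and TGATTNAT, a joint Pbx and Hox site, in 2 (8.3%, against 2.8%), the Hoxa2 window being 1 of these. Both strands were searched for each motif, and TGATTNAT contains TAAT where N is A. These matches describe letters in the windows and nothing about binding, and a link between them and the E11.5 ratios was not tested. Hoxb5 and Hoxb6 had no entry in the promoter table.

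Which Hox genes gave a signal differed with the paralogue number. A gene counted as past the filter when its mean log2 signal reached the value that 40% of probe sets lie under, a signal of about 305 at E11.5 and 251 at E18.5. At E11.5, 14 of 31 members passed, against 5699 of all 8251 genes, and at E18.5, 11 of 33, against 12625 of all 18193. Of paralogue groups 2 to 6, 10 of 12 members passed at E11.5 and 10 of 13 at E18.5. Group 1 had 1 of 2 and 0 of 2, and groups 7 and 8 had 3 of 5 and 0 of 4. The ranges given here were not set in advance. Of groups 9 to 13, none of 12 passed at E11.5 and 1 of 14 at E18.5, Hoxa9, whose control mean of 250.5 lay at the limit. The highest E11.5 signal in groups 9 to 13 was 280.7, for Hoxb13 in lung.

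**Figure D1:**
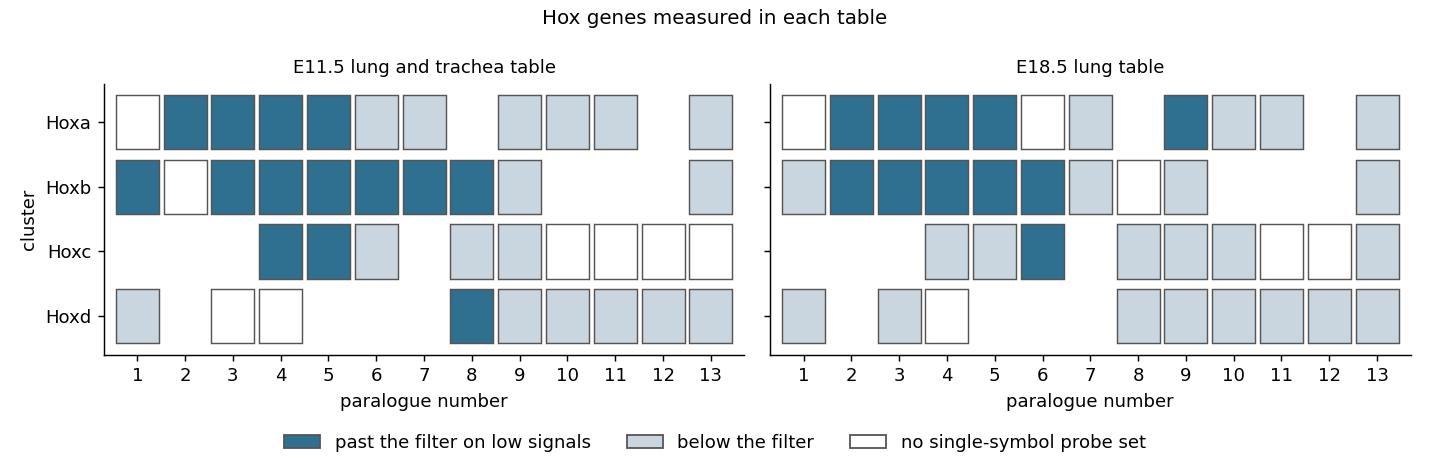
Map of the Hox genes by cluster (rows) and paralogue number (columns) in the E11.5 table (left) and the E18.5 table (right). Dark boxes passed the filter on low signals, pale boxes did not, white boxes had no single-symbol probe set, and empty places hold no gene. Dark boxes number 14 at E11.5 and 11 at E18.5, and all of them but Hoxa9 at E18.5 lie in groups 1 to 8.

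The clusters were represented unevenly, but they also hold different paralogue numbers, and cluster and number were not separated here. Hoxb had 7 of 9 measured members past the filter at E11.5 and 5 of 9 at E18.5, and Hoxa had 4 of 10 and 5 of 9. Hoxc had 2 of 5 at E11.5 and 1 of 7 at E18.5, Hoxc6, and Hoxd had 1 of 7, Hoxd8, and 0 of 8. The tables of the different ages come from different array types with different probe sets, scaled separately, so a gene's signals were not compared between ages. Hoxa2, Hoxa3, Hoxa4, Hoxa5, Hoxb3, Hoxb4, Hoxb5 and Hoxb6 passed in both. Hoxb1, Hoxb7, Hoxc4, Hoxc5 and Hoxd8 passed at E11.5 and were below the filter at E18.5, while Hoxa9 and Hoxc6 did the reverse.

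At E11.5 the lung and trachea arrays differed most at paralogue groups 5 and 6. With 1 array per tissue there is no replicate and no test, and each ratio describes these samples alone. Of the 13 Hox genes compared (past the filter, with the higher signal above the table median of 543), 4 were over 2-fold apart, and in all 4 lung was higher: Hoxb6, Hoxb5, Hoxa5 and Hoxc5. None was over 2-fold higher in trachea. Over all 5114 genes compared, 1.17% were over 2-fold higher in lung and 2.25% over 2-fold higher in trachea. Ratios and the 2-fold limit were taken on signal plus a pseudocount of 84.3, which understates differences between low signals.

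Hoxb6, a gene expressed in trunk and lateral mesoderm, read 3425 in lung and 570.8 in trachea. That is 6-fold in signal and a log2 ratio of 2.42, which ranked 2 of the 5114 genes compared, counted from the most lung-biased. Hoxb5, its neighbour in the cluster, read 3675 and 995.7, a 3.69-fold difference in signal and a log2 ratio of 1.80 (rank 8). In both cases the trachea signal was still above the table median.

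Hoxa5 read 4120 in lung and 1794 in trachea, a 2.3-fold difference in signal and a log2 ratio of 1.16 (rank 34). Hoxc5, the paralogue of Hoxa5 and Hoxb5 in the Hoxc cluster, read 852.3 and 367.2, with a log2 ratio of 1.05 (rank 49). It was the gene just inside the 2-fold limit. Hoxb1, best known from the hindbrain, lay just outside it at 630.9 and 292.1, which is 2.16-fold in signal but a log2 ratio of 0.93 after the pseudocount. All 3 measured members of group 5 were thus over 2-fold higher in the lung sample.

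Of the other members of group 6, neither passed the filter. Hoxa6 read 509.1 and 86.76 on its brighter probe set (log2 ratio 1.79) and 178.5 and 151 on the other (0.16). The array maker marks the brighter one r, for relaxed design rules, and the other f, for a family of similar sequences. Among members past the filter, the probe sets used for Hoxa4 and Hoxb8 carry the r mark. Hoxc6 read 135.2 and 34.96 (log2 ratio 0.88). The 6 measured genes of groups 5 and 6 all read higher in lung, with log2 ratios from 0.88 to 2.42. These groups were picked out after the values were seen.

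**Figure D2:**
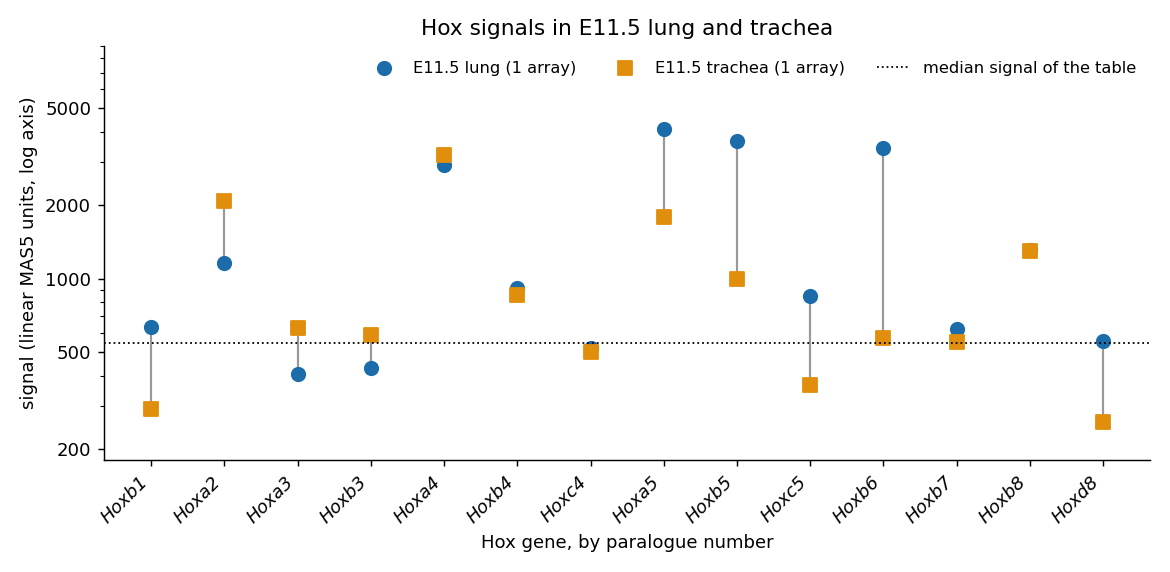
Signals of the 14 Hox genes past the filter in E11.5 lung (circles) and E11.5 trachea (squares), 1 array each, in linear MAS5 units on a log axis, ordered by paralogue number. The dotted line is the table median of 543. The long lines at Hoxa5, Hoxb5, Hoxc5 and Hoxb6 run up to the lung circle, and at Hoxa2, Hoxa3 and Hoxb3 the trachea square is the higher mark.

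Groups 2 and 3 lay on the trachea side. Hoxa2, which patterns the second pharyngeal arch and hindbrain, read 1159 in lung and 2075 in trachea, a log2 ratio of -0.80, the lowest of the 31 members. Hoxa3, needed for thymus and parathyroid formation, read 407 and 628.6 (log2 ratio -0.54), and Hoxb3 read 429.5 and 585.4 (-0.38). None of these 3 reached 2-fold.

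Group 4 lay close to even. Hoxb4 read 911.1 in lung and 854.6 in trachea (log2 ratio 0.08), and Hoxc4 519 and 501.1 (0.04), its higher signal being under the table median. Hoxa4 read 2911 and 3202 on its brightest probe set (-0.13). Its 4 probe sets did not share a sign, with log2 ratios of -0.24, -0.13, 0.33 and 0.39. On the probe sets used, the 6 measured genes of groups 2 to 4 ranged from -0.80 to 0.08, below the lowest value of groups 5 and 6. That gap did not hold on other probe sets, where Hoxa4 reached 0.39 and Hoxa6 had 0.16.

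Along the Hoxa cluster the log2 ratio therefore ran from -0.80 at Hoxa2 through -0.54 and -0.13 to 1.16 at Hoxa5, and along Hoxb from -0.38 at Hoxb3 through 0.08 and 1.80 to 2.42 at Hoxb6. Hoxb1, at the anterior end of Hoxb, did not follow that order, with 0.93. Beyond Hoxb6 the ratio was lower on the probe sets used: Hoxb7 read 619.5 and 551.4 (0.15) and Hoxb8 read 1310 and 1297 (0.01). The other Hoxb8 probe set, below the filter, had 0.38. A probe set shared by Hoxb8 and Hoxb7 had 0.92, so the size of the drop was not settled. Hoxd8 read 553.9 and 258.7 on 1 probe set (0.90) and 71.8 and 121.6 on the other (-0.40), so its direction was not settled. The steps between neighbouring genes have no replicate error.

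**Figure D3:**
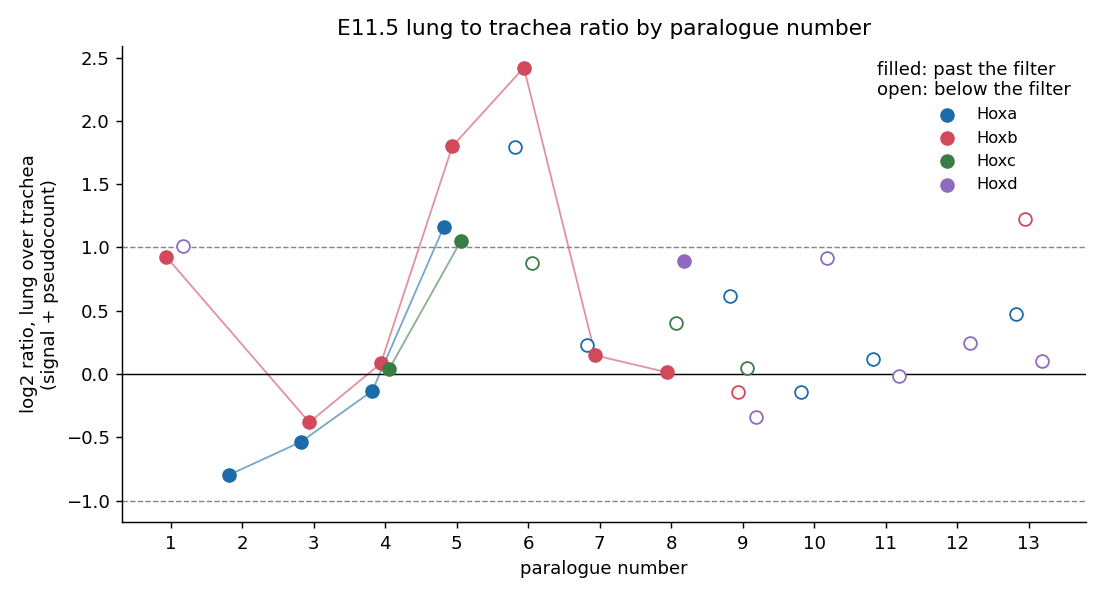
Log2 ratio of E11.5 lung over trachea (signal plus pseudocount, 1 array per tissue) against paralogue number for all 31 measured Hox genes, coloured by cluster. Filled circles passed the filter and are joined within a cluster, open circles did not, and dashed lines mark 2-fold. The filled circles of groups 2 to 4 sit between -0.80 and 0.08 and those of groups 5 and 6 between 1.05 and 2.42.

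Over all 31 measured members, filter aside, 23 (74.2%) had a positive log2 ratio, against 50.8% of all 8251 genes. The median was 0.23 for Hox genes and 0.01 for all genes. The median of the Hox genes was 0.38 with no pseudocount, and 0.08 with a pseudocount 4 times as large. Of the 17 members below the filter, Hoxa6 had the largest log2 ratio and Hoxd11, at 37.32 and 38.68, was nearly even. Hoxb13 at 280.7 and 72.19 and Hoxd1 at 125.4 and 19.8 also had log2 ratios above 1, and the other Hoxd1 probe set had -0.12.

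Markers of other cell types differed between the same samples. Of the 5 cranial and pharyngeal mesenchyme markers, Six2 and Twist1 were over 2-fold higher in trachea, with log2 ratios of -3.80 and -2.97. Dlx2 read 40.59 in lung and 801.8 in trachea but was below the filter. Prrx1 leaned to trachea (-0.73) with both signals under the table median, and Alx4, below the filter, leaned to lung (0.23). The list's summed signal was 939 in lung and 8141 in trachea. Of 4 smooth muscle markers, Acta2, Tagln and Myh11 were over 2-fold higher in trachea, and the sum was 4720 against 12181. Of 5 neuronal and neural crest markers, Sox10, Elavl4, Stmn2 and Ret read higher in trachea, none of them called over 2-fold apart (list median -0.51), and Tubb3 was near even (0.13). Tubb3 made up most of that list's sum of 9728 in lung and 10050 in trachea. The endothelial sums were 8666 and 8831. No marker of these lists was at 0, and the part of these differences in the Hox ratios was not tested.

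Genes that work with Hox proteins or set their expression were read against the same shares of all genes, 1.17% over 2-fold higher in lung and 2.25% in trachea. Pbx and Meis proteins are the DNA-binding partners of Hox proteins. Of 5 cofactor genes compared, 1 was over 2-fold apart, Meis2 at 487.2 in lung and 1075 in trachea (log2 ratio -1.02), while Pbx3 read 6860 and 11600 (-0.75). Of 6 upstream regulators compared, 1 was apart, the retinoic acid binding protein gene Crabp1 at 333.2 and 1402 (-1.83). Aldh1a2, which makes retinoic acid, read 1778 and 1737 (0.03), and Cdx1, Cdx2 and Cdx4 were below the filter.

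None of 17 Polycomb and Trithorax genes compared, whose products keep Hox genes silent or active, was over 2-fold apart. The nearest were Suz12 at 1610 and 812.7 (log2 ratio 0.92) and Kmt2a at 1994 and 3744 (-0.88). Of 10 lung mesenchyme partners compared, 1 was apart, Foxf1 at 1969 and 793 (1.23), and Tcf21 lay the other way at 3344 and 6562 (-0.96). No gene of the extended Hox relatives, such as Evx1 and Meox1, reached a signal at which it was compared.

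At E18.5 no Hox gene passed the test between bitransgenic and control lungs. Of the 11 members past the filter, 0 had a limma adjusted p under 0.05, against 0.673% of the 12625 genes tested. At an unadjusted p under 0.05 there was 1, against 9.69% of all genes: Hoxa4, which passed the filter only through its control values. Of the 11, 5 had a positive and 6 a negative log2 change. The bitransgenic mean of Hoxc6 (223.1) and the control mean of Hoxa9 (250.5) also lay under the filter signal of about 251. The signs of Hoxa4, Hoxc6 and Hoxa9 therefore come from genes let in by the group where they read higher. The median over all 33 measured members was 0.07 and over all 18193 genes 0.01. The share called is too low for 11 genes to say whether Hox genes were called less often than others.

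The lung-biased E11.5 genes Hoxa5, Hoxb5 and Hoxb6 are given first. Hoxa5 read 9308, 10720 and 12340 in control lungs 1 to 3 and 9680, 8948 and 10320 in bitransgenic lungs 1 to 3. The groups overlapped, with control 3 highest. Its log2 change was -0.15 (SE 0.14, 95% interval -0.46 to 0.15, n = 3 per group, limma adjusted p = 0.799). The other Hoxa5 probe set had -0.28, also with overlap.

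Hoxb5 read 2166, 1852 and 2192 in control lungs 1 to 3 and 2040, 1752 and 2336 in bitransgenic lungs 1 to 3. The means, 2070 ± 189 (SD, n = 3) and 2043 ± 292 (SD, n = 3), lay well within the spread. Its log2 change was -0.02 (SE 0.15, 95% interval -0.37 to 0.32, n = 3 per group, limma adjusted p = 0.984), with a sign that turned when control 1, control 3 or bitransgenic 2 was left out.

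Hoxb6 read 623.1, 406.9 and 525.4 in control lungs 1 to 3 and 758.1, 551.6 and 832.6 in bitransgenic lungs 1 to 3. Bitransgenic 1 and 3 lay above all controls and bitransgenic 2 lay among them. The log2 change was 0.40 (SE 0.21, 95% interval -0.08 to 0.88, n = 3 per group, limma adjusted p = 0.624). Fitted together with the Actb ratio it was 0.24.

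**Figure D4:**
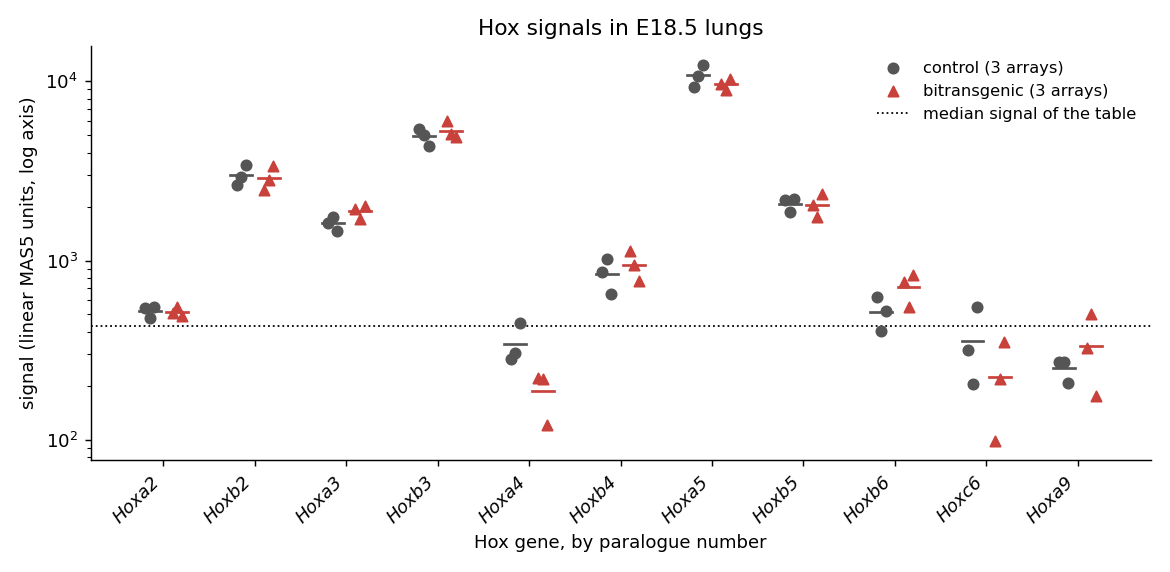
Signals of the 11 Hox genes past the filter on each E18.5 array, in linear MAS5 units on a log axis, ordered by paralogue number. Circles are the 3 control lungs, triangles the 3 bitransgenic lungs, short bars the group means, and the dotted line the table median of 434. The marks of the groups mix at every gene except Hoxa4, where the 3 triangles lie below the 3 circles.

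Hoxa4, the Hoxa member of the paralogue group that also holds Hoxb4, had the smallest p of the members. It read 281.8, 303.3 and 446.2 in control lungs 1 to 3 and 221.4, 218.9 and 120.4 in bitransgenic lungs 1 to 3. All bitransgenic values lay below all controls, at signals near the filter. Every control was above the filter signal of about 251 and every bitransgenic value under it. Hoxa4 thus entered the test only through the group where it read higher. The means were 343.7 ± 89.4 (SD, n = 3) and 186.9 ± 57.6 (SD, n = 3), and the log2 change was -0.66 (SE 0.27, 95% interval -1.26 to -0.06, n = 3 per group, limma adjusted p = 0.466).

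With any single bitransgenic lung left out, the log2 change ran from -0.76 to -0.47. It was -0.31 without control 3 and bitransgenic 3 together (limma adjusted p = 0.653) and -0.30 when the Actb ratio entered the fit (limma adjusted p = 0.903). When any single control was left out, and with quantile normalization or no pseudocount, Hoxa4 no longer passed the filter. Its dimmer probe set had a log2 change of -0.09 with overlapping groups.

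Of all 33 measured members, 2 had groups that did not overlap, Hoxa4 and Hoxa10, both lower in the bitransgenic lungs. Of all 18193 genes, 6.71% showed such a separation with the bitransgenic lungs lower and 7.55% with them higher. Hoxa10 was below the filter, at 89, 84.51 and 108.6 in control lungs 1 to 3 and 2.757, 51.77 and 66.73 in bitransgenic lungs 1 to 3, where the pseudocount of 86.4 exceeds most of the values. Its other probe set overlapped.

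The remaining genes past the filter all overlapped between groups. Hoxa3 read 1615, 1752 and 1468 in control lungs 1 to 3 and 1932, 1699 and 2008 in bitransgenic lungs 1 to 3, a log2 change of 0.21 (limma adjusted p = 0.721). Its 4 probe sets had log2 changes from -0.27 to 0.21. Hoxb3 read 4920 ± 533 (SD, n = 3) and 5297 ± 595 (SD, n = 3), a log2 change of 0.10.

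Hoxb4, known for its part in blood stem cells, read 866.6, 1020 and 649.4 in control lungs 1 to 3 and 1129, 942.1 and 769.6 in bitransgenic lungs 1 to 3. The log2 change was 0.15 (limma adjusted p = 0.874), and its other probe set had 0.43, also with overlap. Without control 3 the Hoxb4 change was -0.0055, and fitted together with the Actb ratio it was -0.14. Hoxa2 read 524.6 ± 39.6 (SD, n = 3) and 515.2 ± 31.4 (SD, n = 3). Hoxb2 read 2983 ± 389 (SD, n = 3) and 2871 ± 454 (SD, n = 3).

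Hoxc6 and Hoxa9 were the most variable, and each passed the filter only through the group where it read higher. Hoxc6 read 316.3, 204.3 and 549.1 in control lungs 1 to 3 and 98.08, 218.9 and 352.4 in bitransgenic lungs 1 to 3, with a log2 change of -0.53 (95% interval -1.38 to 0.32, limma adjusted p = 0.745). Fitted together with the Actb ratio it was 0.08. The other Hoxc6 probe sets had -0.19 and -0.09, also with overlap. Hoxa9 read 270.9, 272.1 and 208.5 against 327, 503.7 and 174.6, a log2 change of 0.25 (95% interval -0.44 to 0.94, limma adjusted p = 0.862). Its other probe set, below the filter, had -0.09.

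For 9 of the 11 genes the 95% interval lay within 2-fold either way, and Hoxa4 and Hoxc6 were the exceptions. A p above the threshold does not show that the groups were alike, and smaller differences than these intervals were not resolved with 3 arrays per group. The 22 members below the filter had group means between 12.24 (Hoxb13, controls) and 223.7 (Hoxc9, bitransgenic). Several genes that passed at E11.5 were among them. Hoxc4 read 154.8, 37.53 and 51.03 in control lungs 1 to 3 and 173.3, 143.4 and 233.6 in bitransgenic lungs 1 to 3, with control 1 inside the range of the bitransgenic lungs. Hoxb7 ran from 52.72 to 82.91 in controls and from 39.24 to 298.5 in bitransgenic lungs. Hoxc5, lung-biased at E11.5, ran from 10.82 to 69.03 and from 49.12 to 145.5. Both Hoxb7 and Hoxc5 overlapped between groups.

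The posterior genes were scattered at low signals. In group 9, Hoxb9 and Hoxd9 stayed at or under 141.3 on every array and Hoxc9 reached 306.4. In groups 10 to 13 the highest single value was 327.9, for Hoxa13 in bitransgenic 3, where the other bitransgenic values were 51.94 and 147.2. Hoxd13 likewise stood at 250.6 in control 3 and at 50.68 to 116.4 on the other arrays. No member of groups 9 to 13 had a non-overlapping rise. By cluster, the median log2 change over all measured members was -0.02 for Hoxa, 0.10 for Hoxb, 0.10 for Hoxc and 0.07 for Hoxd.

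**Figure D5:**
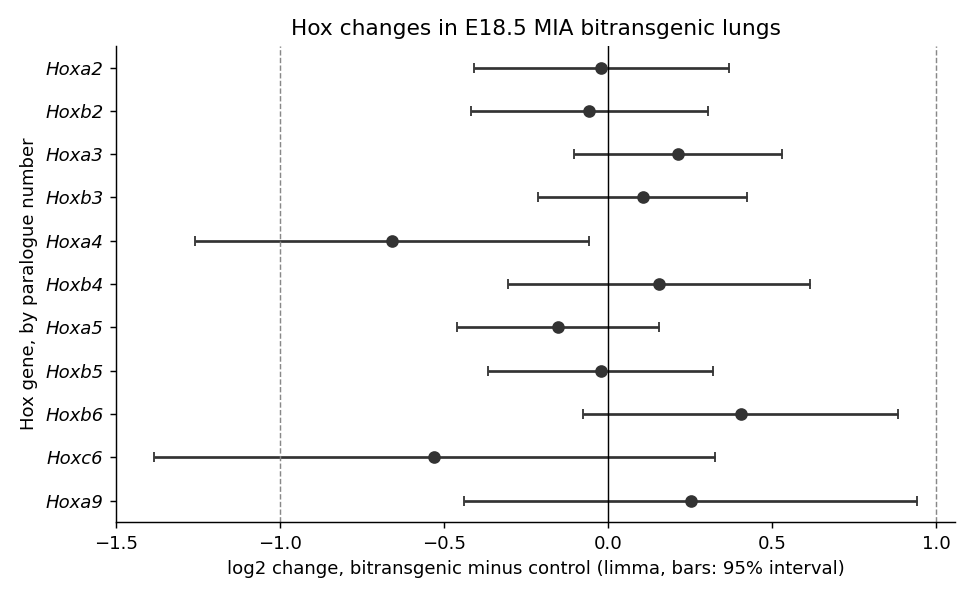
Log2 change of the 11 Hox genes past the filter, bitransgenic minus control (limma, 3 arrays per group), with 95% intervals, and dashed lines at 2-fold. Every interval but that of Hoxa4, from -1.26 to -0.06, includes 0, and none of the genes passed after adjustment over 12625 genes. Hoxa4 and Hoxc6 passed the filter only through their control values, and Hoxa9 only through its bitransgenic values.

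The genes that act with or upstream of Hox genes held no call at E18.5 in the limma fit, where 0.673% of all genes were called and 9.69% had an unadjusted p under 0.05. At that share, lists of this size say nothing on whether calls were rarer there. Of cofactors 0 of 7 passed, with 1 at an unadjusted p under 0.05: Pbx3 at a log2 change of 0.57 (limma adjusted p = 0.364). Of upstream regulators 0 of 8 passed, with 2 at an unadjusted p under 0.05, Wnt3a at -0.82 and the retinoic acid receptor gene Rarb at 0.51 (limma adjusted p = 0.318 and 0.378). Of Polycomb and Trithorax genes 0 of 25 passed, with 2 at an unadjusted p under 0.05, Cbx7 at 0.62 and Phc3 at 0.28 (limma adjusted p = 0.448 and 0.504).

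Among lung mesenchyme partners 0 of 15 passed, with 4 at an unadjusted p under 0.05. Tbx3 was at -0.64 on the log2 scale (limma adjusted p = 0.242), Tbx4, a regulator of lung mesenchyme, of -0.45 (0.361), Tbx2 of -0.29 (0.485) and the hedgehog effector gene Gli3 of 0.44 (0.392). The extended Hox relatives held 0 of 3 and none at an unadjusted p under 0.05. The summed signal of the lung mesenchyme markers Tbx4, Tbx5, Foxf1, Wnt2 and Tcf21 was 80577 to 86392 in the controls and 66328 to 76102 in the bitransgenic lungs, and none of the 5 passed. That of 5 endothelial markers was 37957 to 45147 in controls and 29198 to 32166 in bitransgenic lungs, again with none past the test. Of 3 mesothelial markers, Msln fell (log2 change -1.61, limma adjusted p = 0.00904), while Wt1 (-0.33) and Upk3b (-0.01) overlapped between groups. Of 4 heart markers, Myh7 rose (0.87, limma adjusted p = 0.0293), while Myh6 and Tnnt2 overlapped between groups. The summed signal of 3 blood markers, mostly that of Alas2, was 12476 to 16512 in controls and 8626 to 9964 in bitransgenic lungs. The log2 change was -0.83 for Alas2 but 0.16 for Ptprc and 0.53 for Hba-a1, which was below the filter. Neither of the 2 tested passed. The part of these differences in the Hox values was not tested.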

How the data were processed

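The deposited values were intensities, 1 linear signal per probe set and array, made by the authors with MAS5 per the submitters' processing notes, with no version given. Their 2% trimmed mean was about 1500 on every array. Control probe sets were left out (64 at E18.5, 66 at E11.5), and probe sets with 1 symbol were named from the platform annotation, which gave 18193 and 8251 genes. Values were analysed as log2 of signal plus a pseudocount at the 20th percentile of the table (86.4 and 84.3). A gene was its probe set with the highest mean, and the filter kept 12625 of them at E18.5 and 5699 in the E11.5 table. E18.5 groups were compared by limma 3.58.1 in R 4.3.3 (intensity trend, no covariate, two-sided, Benjamini-Hochberg over all genes, threshold 0.05), a fit tested on simulated data. No p under 0.1 can come from permuting 3 arrays against 3, so no permutation test was run. Replicate numbers follow the order of deposit and pair nothing.

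The members, the other gene lists and the alternatives were chosen with earlier results of these data known. Genes named with values were Hoxa5, Hoxb5 and Hoxb6, the 6 members with the smallest p at E18.5, members called or over 2-fold apart and those nearest that limit, and those of groups 4 and 5 past the filter. From the lists of cofactors, upstream regulators, Polycomb and Trithorax genes, Hox relatives and mesenchyme partners, genes called or apart were named, or else up to 3 with the smallest p or largest ratio. Members beyond this rule, the markers and the motifs were chosen after values were seen. Sequences are from RefSeq. Figures were drawn with matplotlib 3.10.9.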

Additional observations from a re-analysis of the deposited data

How the results depend on the processing

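No Hox gene was called at E18.5 under any of the 17 alternatives run. The count of all genes called was 85, and 1339 with array weights (whose estimation stopped before convergence), 20 with the Actb ratio as a covariate, 189 without both arrays of lowest correlation, and 22 to 97 with 1 array left out. The count of Hox genes whose groups did not overlap was 2 (6.1%, against 14.3% of all genes). It was 1 with no pseudocount and 3 when probe sets were averaged per gene (9.1%, against 14.6%). With 1 array left out it was 2 to 7 (6.1% to 21.2%, against 20.8% to 26.2% of all genes). Without both arrays of lowest correlation it was 7 (21.2%, against 40.6%). Fewer arrays are compared in the fits that leave arrays out. The Hox share was below that of all genes in each, but these fits reuse the same arrays. As 22 of the 33 members lay below the filter, these counts do not show that Hox groups overlapped more often than others. The sign of Hoxb5 turned with array weights (0.0155), and its log2 change ran from -0.1211 to 0.0778 with 1 array left out (0.0099 without control 1, 0.0181 without control 3, 0.0778 without bitransgenic 2). Hoxb4 ran from -0.0055 to 0.29 with 1 array left out and was -0.14 with the Actb ratio as a covariate, where Hoxc6 was 0.0808. The cause was not tested.

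At E11.5, Hoxa5, Hoxb5 and Hoxb6 were over 2-fold higher in lung under all 7 alternatives. Hoxc5 was not with a pseudocount 4 times as large (log2 ratio 0.76) or a filter at the 60th percentile, which it did not pass, and with no pseudocount Hoxb1 and Hoxd8 joined, which gave 6. The count of all genes apart, 175, was 95 with the larger pseudocount and 78 with the stricter filter, and the median Hox ratio, 0.23, was 0.38 with no pseudocount. The mean of its 4 probe sets gave Hoxa4 a log2 ratio of 0.09. No paired analysis was possible because the labels give no number that joins an array of 1 group to an array of the other.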

Other observations

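Several probe sets of the Hox clusters fell outside the choice of members, because they carry more than 1 symbol or an antisense transcript. At E11.5 a probe set shared by Hoxd4 and Hoxd3 read 300.1 in lung and 510.2 in trachea (log2 ratio -0.63), and another read 82.48 and 132.6 (-0.38). Both lay on the same side as Hoxa3 and Hoxb3. A probe set shared by Hoxb8 and Hoxb7 read 961.5 and 467.8 (0.92), whereas the probe sets of Hoxb7 alone and Hoxb8 alone had 0.15 and 0.01. These probe sets of 1 locus therefore gave unlike ratios on the same arrays.

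At E18.5 the probe set of Hoxb5os, annotated as a transcript opposite Hoxb5, read 5941, 5016 and 2208 in control lungs 1 to 3 and 5140, 5593 and 5119 in bitransgenic lungs 1 to 3. The control 3 value lay far below the other 5, while Hoxb5 itself read 2192 on that array, its highest control value. The group means were 4388 ± 1940 (SD, n = 3) and 5284 ± 268 (SD, n = 3), and the log2 difference was 0.38 (limma adjusted p = 0.774). Which strand that probe set detects was not checked. The Hoxa11os and Hoxd3os1 probe sets read at most 321.7 on the E18.5 arrays, below the table median of 434.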
